A study of Mus musculus with 6 samples.

Results

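The Ly6 genes described here are Ly6d, Ly6k, Ly6e, Ly6a, Ly6c1 and Ly6c2, 6 of the 23412 rows of a gene count table from mouse germinal centre B cells. They lie together on chromosome 15 and were chosen by symbol with the measured difference between the genotypes in these same libraries already known, so their values in that comparison are a description and carry no test. The DAF-TM group came from mice labelled Cg1-cre(+/-);DAF-TM(fl/fl), and the control group from mice labelled Cg1-cre(+/-), so Cg1-cre was common to both. It gives Cre in B cells once they transcribe the Ighg1 constant region. DAF-TM is a transgene placed at R26, and DAF is a cell surface protein that limits complement and is encoded in the mouse by Cd55. One label writes the transgene as DAF-Tg and gives (+/+) for mice without the fl/fl form, which is taken here as the control. All mice were immunized into the peritoneum with sheep red blood cells, and spleen cells positive for B220, GL7 and Fas were sorted on day 10. The labels give 3 replicates per group, and neither age, sex nor strain, nor whether a library holds 1 mouse or several. DAF-TM replicates 2 and 3 matched count for count over the 23412 rows, a difference smaller than sampling noise, and entered as 1 sample, which left 2 DAF-TM and 3 control libraries.

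Ly6 proteins are small cell surface proteins with a fold of finger-like loops held by disulphide bonds, and most are tied to the outer membrane by a glycosylphosphatidylinositol (GPI) anchor. Several serve as markers of blood cell types: Ly6a is Sca-1, a marker of mouse blood stem cells that activated lymphocytes also carry, Ly6c1 and Ly6c2 encode the Ly-6C antigen of monocytes, plasma cells and some T cells, and Ly6d marks lymphoid progenitors that have begun the B cell path. Ly6e, also known as Sca-2, is widespread among lymphocytes, and Ly6k is known mainly from the testis. Interferons are known to raise Ly6a, Ly6c and Ly6e in mouse lymphocytes.

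The libraries held 11280400 and 10684753 counts in DAF-TM libraries 1 and 2 and 7257339 to 12783965 in the controls. Cd55 stood at 713 and 724 normalised CPM (counts scaled to a common library size) in the DAF-TM libraries and at 23.4 to 34.4 in the controls. Defining genes of germinal centre B cells were abundant in every library: Bcl6, their master regulator, stood at 214 and 238 CPM in DAF-TM cells and at 277.8 to 312 in controls. Of 17 germinal centre genes 0 were called by edgeR and 2 had an unadjusted edgeR p under 0.05, both with DAF-TM lower. The median log2 fold change was -0.14, as it was over all genes above 100 CPM. Of the 17 log2 values 1 was positive, beside 53.9% of all genes tested. In 7 both DAF-TM libraries lay below every control, beside 9.01% of all genes tested. The libraries were mixed in sex. DAF-TM library 1 held both Xist (291 CPM) and Y-linked reads (284 CPM), DAF-TM library 2 and control library 1 had Xist at 797 and 744 CPM with at most 1 Y-linked count, and control libraries 2 and 3 had Xist at 2.42 and 2.89 CPM with Y-linked genes at 653 and 483. The p-values measure the spread between these libraries, which may be partly technical.

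In the reference annotation the 6 genes span 349.9 kb of chromosome 15 (GRCm38), a stretch with 13 protein-coding genes. Of these, 12 are in the table under the same symbol, and Gml2 is there as Hemt1. From the centromeric end the 6 genes are Ly6d (chr15:74762056-74763620), Ly6k (chr15:74796874-74799986), Ly6e (chr15:74955051-74959905), Ly6a (chr15:74994877-74998031), Ly6c1 (chr15:75044018-75048830) and Ly6c2 (chr15:75108158-75111970). Ly6e alone among them is on the plus strand. The genes are close relatives, which bears on how far their counts can be told apart. The coding sequences of Ly6c1 and Ly6c2 matched at 384 of 393 bases, with 9 substitutions and an unbroken identical run of 188 bases, longer than the 100 nt reads. Ly6a matched Ly6c1 at 329 and Ly6c2 at 328 of 402 aligned positions, with no identical coding run over 52 bases. The first 120 coding bases of the Ly6c genes hold 6 of the 9 substitutions. They are shown with the substituted bases in capitals, from the GENCODE M21 transcripts.
Ly6c1 coding bases 1 to 120: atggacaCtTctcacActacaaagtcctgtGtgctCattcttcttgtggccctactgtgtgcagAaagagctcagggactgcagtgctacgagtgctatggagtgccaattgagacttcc
Ly6c2 coding bases 1 to 120: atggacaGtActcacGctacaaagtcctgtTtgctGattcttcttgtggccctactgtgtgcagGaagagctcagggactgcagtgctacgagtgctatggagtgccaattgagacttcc

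Cut into every possible 100-base window, 178 of 1756 windows of the Ly6c1 transcripts (10.1%) occurred unchanged in transcripts of Ly6c2 or Ly6a, and 114 of 767 windows of Ly6c2 (14.9%) occurred in Ly6c1. For Ly6a the number was 19 of 1311 windows, and for Ly6d and Ly6e it was 0 of 645 and 0 of 3154. Of the windows of Ly6k 135 of 730 (18.5%) lie in Gm17189, an antisense transcript that shares 395 exon bases with it and has no row in the table. Reads from Ly6k and from this antisense partner cannot be told apart without strand, so the value of Ly6k is uncertain, and so is the split between Ly6c1 and Ly6c2.

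The regions just before the Ly6c1 and Ly6c2 starts were less alike than their coding sequences, which aligned without gaps. In windows from 250 bases before to 50 after the start, 208 of 334 aligned positions were identical and 58 were substitutions. The other 68 had no partner, some of them at the ends of the windows, and no identical run was over 20 bases. Both windows are from RefSeq (GRCm38.p6, minus strand), at chr15:75048788-75049087 for Ly6c1 and chr15:75111922-75112221 for Ly6c2. They are the promoters of the members with the highest fold changes, and bases that differ in the alignment or have no partner in it are in capitals. RefSeq windows were matched for 2 of the 6 genes.
Ly6c1 promoter: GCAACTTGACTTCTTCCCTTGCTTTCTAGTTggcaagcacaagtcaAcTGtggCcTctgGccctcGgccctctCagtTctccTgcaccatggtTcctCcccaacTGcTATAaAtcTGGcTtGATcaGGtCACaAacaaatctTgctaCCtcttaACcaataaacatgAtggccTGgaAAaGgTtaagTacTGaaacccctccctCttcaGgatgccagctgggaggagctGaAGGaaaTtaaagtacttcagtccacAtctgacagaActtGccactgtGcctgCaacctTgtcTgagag
Ly6c2 promoter: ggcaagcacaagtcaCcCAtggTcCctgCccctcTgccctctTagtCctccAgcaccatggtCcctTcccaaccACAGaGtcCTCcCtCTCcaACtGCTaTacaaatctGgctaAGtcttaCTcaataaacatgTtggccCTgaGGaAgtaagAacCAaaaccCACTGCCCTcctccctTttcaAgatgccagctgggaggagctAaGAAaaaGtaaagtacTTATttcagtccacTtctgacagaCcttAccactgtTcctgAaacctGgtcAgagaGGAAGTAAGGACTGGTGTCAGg

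The core of the interferon-stimulated response element, searched on both strands as GAAA, any 2 bases and GAAA again, occurred in neither window, nor did TTCNNNGAA, the gamma-activated site. They occur in 3.44% and 8.30% of the 32851 RefSeq promoter windows. TATAAA was in the Ly6c1 window, 143 bases before the start, and not in that of Ly6c2, and 13.6% of all windows hold it.

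Ly6e was the most abundant of the 6 transcripts in every library. On the scale of normalised CPM per kilobase of exon, Ly6e averaged 465 ± 57.9 in DAF-TM cells and 422 ± 15.5 in controls (SD, n = 2 and 3), Ly6a 327 ± 104 and 284 ± 26.3, and Ly6d 319 ± 92.5 and 153 ± 32.5. Ly6c2 averaged 35.9 ± 27.7 in DAF-TM cells and 12.8 ± 5.40 in controls, Ly6k 5.06 ± 1.63 and 6.71 ± 4.84, and Ly6c1 1.59 ± 0.392 and 0.469 ± 0.263. In the controls the order was therefore Ly6e, Ly6a, Ly6d, Ly6c2, Ly6k and Ly6c1. The ranges over the control libraries were separate except those of Ly6c2 (6.94 to 17.5 CPM per kilobase) and Ly6k (3.27 to 12.2). On this scale Ly6d reached the level of Ly6a in the DAF-TM libraries: the 2 genes stood at 384 and 401 CPM per kilobase in library 1 and at 253.7 and 254.1 in library 2. In CPM without division by length Ly6d stayed below Ly6a, at 286 against 402 in library 1 and 189 against 255 in library 2. Exon lengths come from GENCODE M21, where Ly6e has 13 coding transcripts and 2460 exon bases against 744 for Ly6d. A shorter true length would place Ly6e higher, and likewise Ly6a, which has 6 coding transcripts and 1004 exon bases.

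**Figure D1:**
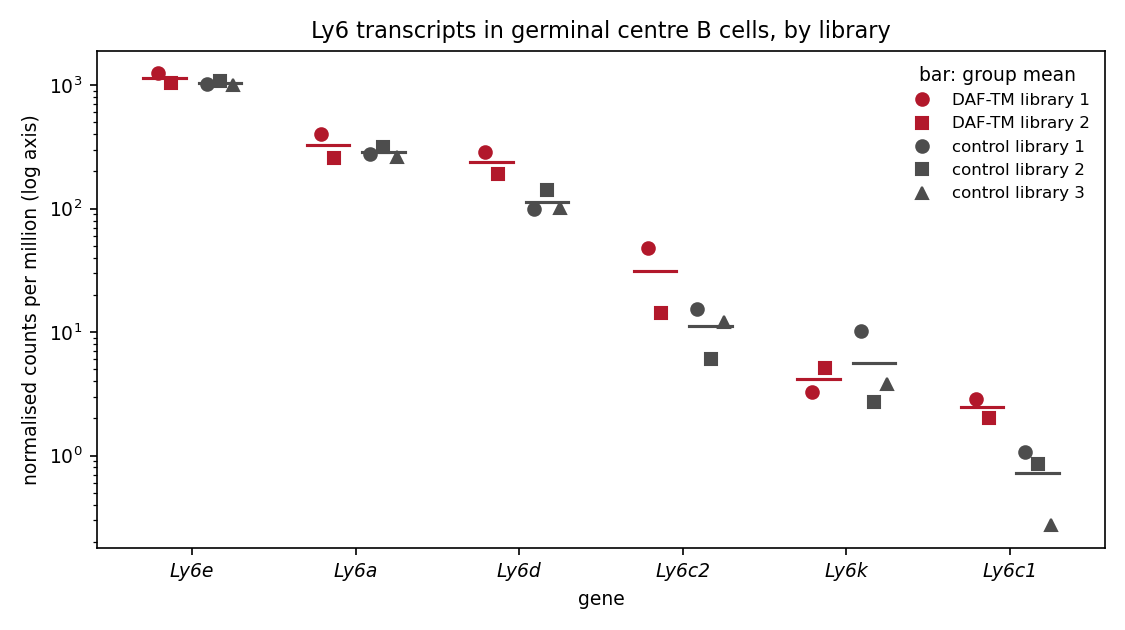
Normalised CPM of the 6 Ly6 genes on a log axis, with 1 point per library, DAF-TM in red and control in grey, and a bar at each group mean. Both DAF-TM points lie above all control points for Ly6d and Ly6c1 and overlap them for the other genes, and DAF-TM library 1 (circle) is the highest of the 5 libraries for 5 of the 6 genes.

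Ly6d was the gene of the set that passed the threshold of the fit over all genes, a description and not an independent test. It had 286 and 189 normalised CPM in DAF-TM libraries 1 and 2, against 99.1, 142 and 101 CPM in control libraries 1 to 3. Both DAF-TM libraries were above every control. Its log2 fold change, DAF-TM over control, was 1.06 ± 0.16 (SE), 2.08-fold higher. Of the 6 members 1 passed an edgeR quasi-likelihood test at an adjusted p under 0.05 with DAF-TM higher and 0 with DAF-TM lower, beside 0.373% and 0.0373% of the 18767 genes tested, and 0.410% in either direction. At an unadjusted edgeR p under 0.05 there were 2 of the 6 members, beside 5.74% of all genes. Nothing is read from this share, because the members were chosen with the comparison known. All 6 passed the filter on low counts. Without DAF-TM library 1 the log2 value of Ly6d was 0.72 and it was no longer called. Between the libraries with high Xist and at most 1 Y-linked count, Ly6d stood at 189 CPM in DAF-TM library 2 and at 99.1 CPM in control library 1.

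Ly6a and Ly6e did not pass that threshold. Ly6a had 402 and 255 CPM in the DAF-TM libraries, against 278, 314 and 263 CPM in the controls, and the controls lay between the DAF-TM values. Its log2 fold change was 0.21 ± 0.17 (SE), and it was -0.17 without DAF-TM library 1 and 0.50 without DAF-TM library 2. Ly6e had 1245 and 1044 CPM in the DAF-TM libraries, against 1029, 1080.3 and 1005 CPM in the controls. Library 1 was the highest and library 2 stood within the controls, with a log2 fold change of 0.14 ± 0.16 (SE), which was 0.00 without DAF-TM library 1. Set against Ly6a within each library, Ly6d was higher in both DAF-TM libraries than in any control. Per unit of Ly6a it stood at 0.711 and 0.740 in DAF-TM libraries 1 and 2, against 0.356, 0.451 and 0.383 in control libraries 1 to 3, a ratio that needs no scaling between libraries. Ly6d took 14.4% and 12.5% of the summed CPM of the 6 genes in DAF-TM cells, against 6.92%, 9.17% and 7.27% in controls. Ly6e took 62.6% and 69.2% in DAF-TM cells, against 69.9% to 72.6% in controls.

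The Ly6c genes had the highest fold changes and the widest errors. Ly6c2 had 48.2 and 14.2 CPM in the DAF-TM libraries, against 15.2, 6.02 and 12.1 CPM in the controls. DAF-TM library 1 stood far above the rest, and library 2 lay below control library 1. The log2 fold change was 1.499 ± 0.774 (SE) and did not pass. It was 0.36 without DAF-TM library 1, and 2.13 and called without DAF-TM library 2. Ly6c1 had 2.88 and 2.03 CPM in the DAF-TM libraries, against 1.06, 0.848 and 0.272 CPM in the controls, from 32 and 24 counts against 10, 10 and 2. The groups did not overlap for 2 of the 6 members, Ly6d and Ly6c1, both with DAF-TM higher, beside 11.3% of all genes tested in that direction, 9.01% with DAF-TM lower and 20.3% in either. For Ly6c1 the exact 95% Poisson intervals of the nearest libraries did overlap, at 1.30 to 3.01 CPM in DAF-TM library 2 and 0.507 to 1.95 CPM in control library 1. These intervals cover counting error only. Its log2 fold change was 1.69 ± 0.56 (SE) and did not pass, and it ran from 1.38 to 2.01 when 1 library was left out. Ly6c2 had 16.7 and 7.0 counts per count of Ly6c1 in the DAF-TM libraries, against 14.4, 7.1 and 44.5 in the controls. Ly6k had 3.24 and 5.15 CPM in the DAF-TM libraries, against 10.2, 2.71 and 3.81 CPM in the controls. Control library 1 was the highest for Ly6k and the groups overlapped. The log2 fold change of Ly6k was -0.40 ± 0.37 (SE), and 0.38 without control library 1.

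Over the 6 genes 5 log2 fold changes were positive and the median was 0.63, beside a median of 0.03 and 53.9% positive over all genes tested. The median was 0.18 without DAF-TM library 1. The summed level of the 6 genes was 1988 and 1509 CPM in the DAF-TM libraries and 1385 to 1546 CPM in the controls.

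**Figure D2:**
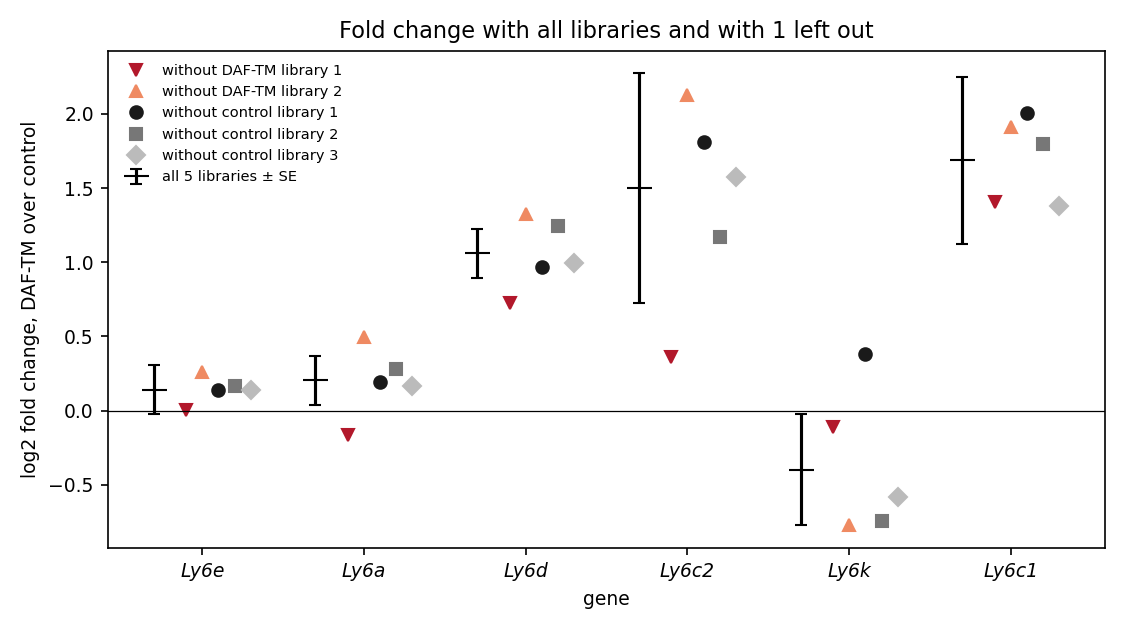
Log2 fold change, DAF-TM over control, of each Ly6 gene with all 5 libraries (bar with SE) and in fits that left out 1 library (symbols). The value without DAF-TM library 1 is the lowest of the 6 plotted for Ly6d, Ly6a, Ly6e and Ly6c2, and Ly6k changes sign without control library 1.

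The other genes of the chromosome 15 cluster were mostly near the lower end of detection. A list of 15 further Ly6/uPAR family genes at this locus matched 12 rows, and 5 of these had enough counts to be tested. Of the 5 none was called in either direction by edgeR or limma-voom, and 0 had an unadjusted edgeR p under 0.05. DESeq2 called none either, but it gave no adjusted p for Ly6i, Psca and Gml and so could not call them. Of the log2 values 3 were positive, and the median was 0.29. Lynx1, whose protein binds nicotinic acetylcholine receptors, was the most abundant, at 14.95 and 13.59 CPM in DAF-TM cells against 10.3, 9.33 and 11.85 CPM in controls. Its groups did not overlap, and the log2 fold change was 0.45 ± 0.25 (SE, edgeR adjusted p = 0.909). Ly6i, which lies between Ly6e and Ly6a, had 1.17 and 2.03 CPM in DAF-TM cells against 0.529, 0.594 and 1.36 CPM in controls (edgeR adjusted p = 0.944). Ly6f, Ly6h, Slurp1, Lypd2 and Gpihbp1 had at most 1.35 CPM in any library and were not tested. The lower range of levels as a whole was shifted in one library: among the 6768 genes with a mean of 1 to 5 CPM the median log2 difference from the control mean was -0.01 in DAF-TM library 1 and 0.41 in DAF-TM library 2. Among the 2581 genes over 100 CPM it was -0.04 in library 1 and -0.23 in library 2. The 1456 olfactory and vomeronasal receptor genes of the table, whose known place is sensory neurons, summed to 587 and 1178 CPM in DAF-TM libraries 1 and 2, against 652 to 836 CPM in controls. The part of this shift in the values of the Ly6 genes was not tested. On the same scale Ly6d stood 1.35 above the control mean in library 1 and 0.75 above it in library 2.

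**Figure D3:**
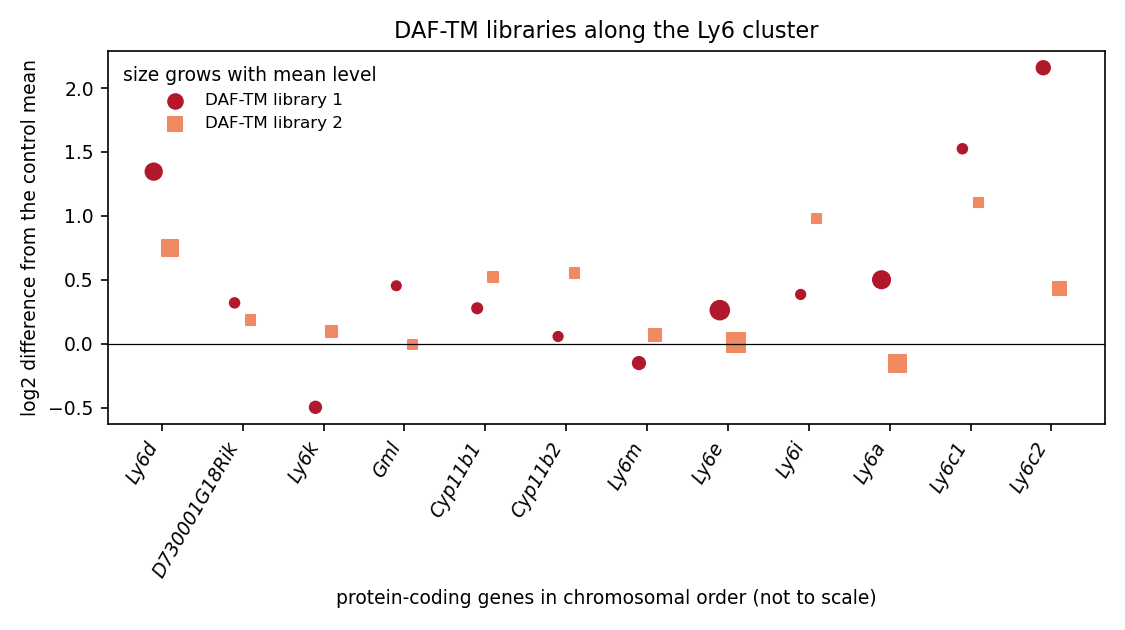
Log2 difference of each DAF-TM library from the mean of the controls, for 12 protein-coding genes from Ly6d to Ly6c2, in chromosomal order. Symbols are larger for higher mean levels, and Gml2, which is in the table as Hemt1, is not shown. Ly6d at one end and Ly6c1 and Ly6c2 at the other stand above 0.4 in both libraries, while the abundant Ly6e and Ly6a between them lie between -0.16 and 0.50.

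Genes of other families within the cluster or on either side of it, called flanking genes here, gave a median close to 0. They ran from Ptk2 (chr15:73205102-73423280) to Cyc1 (chr15:76343523-76346260), so many are not immediate neighbours. Cyp11b1 and Cyp11b2 lie within the cluster, with log2 fold changes of 0.50 and 0.43. Of 30 tested, 0 were called by edgeR, DESeq2 or limma-voom and 0 had an unadjusted edgeR p under 0.05, with a median log2 fold change of 0.06. The most abundant were Ptp4a3, at 419 and 362 CPM in DAF-TM cells against 399 to 486 CPM in controls, Puf60 and Cyc1. None of them lies within the cluster. Ly6/uPAR genes elsewhere in the genome were also without a call: of 20 tested 0 passed with any of these tools that gave an adjusted p. At an unadjusted edgeR p under 0.05 there were 3, each with DAF-TM higher. Of the log2 values 16 were positive, beside 53.9% of all genes tested, and the median was 0.21. In 6 both DAF-TM libraries lay above every control, beside 11.3% of all genes tested. Cd59a, the anchored inhibitor of the complement membrane attack complex, had 19.2 and 17.8 CPM in DAF-TM cells against 16.4, 15.4 and 16.2 CPM in controls (edgeR adjusted p = 0.949). Plaur, the urokinase receptor that gives the uPAR family its name, had 9.01 and 5.15 CPM in DAF-TM cells against 4.97, 3.48 and 4.77 CPM in controls (edgeR adjusted p = 0.867).

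No gene that builds or attaches GPI anchors passed the test. Of 30 such genes tested 0 passed with edgeR, DESeq2 or limma-voom, 6 had positive log2 values, 1 had an unadjusted edgeR p under 0.05 with DAF-TM lower, and the median was -0.08. Pigk, which encodes the catalytic subunit of the transamidase that joins the anchor to its protein, had 68.5 and 54.9 CPM in DAF-TM cells against 66.5, 88.0 and 68.0 CPM in controls. Among 25 other GPI-anchored proteins of lymphocytes 0 passed with these tools, 1 had an unadjusted edgeR p under 0.05 in each direction and the median was 0.12. Cd24a, an anchored glycoprotein of B cells, had 824 and 774 CPM in DAF-TM cells, below the 847 to 1165 CPM of the controls (log2 fold change -0.31, edgeR adjusted p = 0.896), and Cd52 had 904 and 896 CPM in DAF-TM cells against 830.2 to 1159 CPM in controls.

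Of 44 interferon-stimulated genes 2 passed with DAF-TM higher and 0 with DAF-TM lower, beside 0.373% and 0.0373% of all genes tested. Of the log2 values 34 were positive and the median was 0.38, beside 53.9% positive and a median of 0.03 over all genes tested. At an unadjusted edgeR p under 0.05 there were 15 with DAF-TM higher and 0 with DAF-TM lower, beside 5.74% of all genes in either direction. In 15 both DAF-TM libraries lay above every control, beside 11.3% of all genes tested. The number that passed at an adjusted p under 0.05 was 1 with control library 1 or 3 left out and 3 with control library 2 left out, beside 2 with all 5 libraries. The 2 were Ddx58, the RNA sensor RIG-I, at 46.7 and 30.0 CPM in DAF-TM cells against 20.9 to 21.9 CPM in controls (edgeR adjusted p = 0.00295), and the GTPase Irgm1, at 49.5 and 24.5 CPM in DAF-TM cells against 19.1 to 21.4 CPM in controls (edgeR adjusted p = 0.00331). Neither passed without DAF-TM library 1 (edgeR adjusted p = 0.539 for Ddx58 and 0.682 for Irgm1). Ddx58 was also lost without control library 1 (0.074) and Irgm1 without control library 3 (0.172), and DESeq2 called neither (0.128 and 0.322). Of the members known as interferon targets, Ly6a, Ly6e, Ly6c1 and Ly6c2 had log2 fold changes of 0.21, 0.14, 1.69 and 1.499, and none of the 4 passed with all 5 libraries. Ly6c2 was called without DAF-TM library 2.

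Several Ly6 genes are markers of cells outside the sorted gate, so lists for such cells are given beside them. Over all genes tested 0.373% were called with DAF-TM higher and 0.0373% lower, and 5.74% had an unadjusted edgeR p under 0.05. By mean level, the median log2 fold change of all genes tested was 0.25 at 1 to 5 CPM and 0.13 at 5 to 20 CPM. It was -0.07 at 20 to 100 CPM and -0.14 over 100 CPM. The part of this shift in the list values was not tested. Genes of naive or follicular B cells had 4 of 13 called with DAF-TM higher, among them the chemokine receptor Ccr7, at 30.8 and 23.6 CPM in DAF-TM cells against 7.46 to 8.72 CPM in controls (edgeR adjusted p = 1.47e-11). The list median was 0.09 and its summed level 2409.8 and 1779.6 CPM in DAF-TM cells, against 1933 to 2213 CPM in controls. Of 19 plasma cell genes 1 was called, the regulator Prdm1, at 37.9 and 22.5 CPM in DAF-TM cells against 14.8 to 18.5 CPM in controls (edgeR adjusted p = 0.0147), and the list sum was 6824 and 4938 CPM in DAF-TM cells against 5286 to 7755 CPM in controls. Prdm1 was not called without DAF-TM library 1 (edgeR adjusted p = 0.595), control library 1 (0.327) or control library 3 (0.0761), nor with upper-quartile factors (0.054), DESeq2 (0.351) or limma-voom (0.107). Of 15 monocyte genes 2 were called higher and 1 lower, with a median of 0.19. The growth factor receptor Csf1r stood at 27.7 and 15.7 CPM in DAF-TM cells against 7.12 to 14.4 CPM in controls (edgeR adjusted p = 0.00118). The calcium-binding protein gene S100a4 stood at 6.48 and 4.39 CPM in DAF-TM cells against 1.27 to 2.32 CPM in controls (edgeR adjusted p = 0.0419). Chi3l3, a chitinase-like protein of myeloid cells, was lower, at 1.89 and 4.05 CPM in DAF-TM cells against 9.84 to 28.1 CPM in controls (edgeR adjusted p = 0.000924). None of the 3 was called without DAF-TM library 1, with upper-quartile factors or by DESeq2. Csf1r was also lost without control library 3 (edgeR adjusted p = 0.385), Chi3l3 without DAF-TM library 2 (0.565), and S100a4 without any 1 of the controls (0.13 to 0.602). Ccr2, a defining marker of the monocytes that carry much Ly-6C, was not called and stood at 6.21 and 6.84 CPM in DAF-TM cells, against 5.43 to 6.35 CPM in controls. The monocyte sum was 1106 and 930.4 CPM in DAF-TM cells, against 961 to 1175 CPM in controls. Natural killer genes had 9 of 15 called higher and a median of 1.5. Their sum was 206 and 109.5 CPM in DAF-TM libraries 1 and 2, against 60.9 to 99.8 CPM in controls. T cell genes had 2 of 20 called higher, 18 positive log2 values and a median of 0.73. At an unadjusted edgeR p under 0.05 there were 11 T cell genes higher and 0 lower, while the list sum, which its most abundant genes set, was 458 and 445 CPM in DAF-TM cells against 447 to 458 CPM in controls. Plasmacytoid dendritic cell genes had a median of 0.65 and 1 of 10 called higher, Siglech, at 10.9 and 8.52 CPM in DAF-TM cells against 2.64 to 3.54 CPM in controls (edgeR adjusted p = 0.000932). It was not called without DAF-TM library 1 (edgeR adjusted p = 0.246) or control library 1 (0.055). The list sum was 1034 and 900.5 CPM in DAF-TM cells against 960.4 to 1053 CPM in controls. By edgeR neutrophil genes had 0 of 13 called (2 or 3 without any 1 control library), with sums of 38.1 and 97.7 CPM in DAF-TM cells against 93.6 to 296 CPM in controls. Endothelial genes had 0 of 15 called by edgeR, with sums of 130.2 and 138 CPM in DAF-TM cells against 119 to 137 CPM in controls. At an unadjusted edgeR p under 0.05 there were 2 neutrophil genes higher and 1 lower, and 1 endothelial gene higher. The log2 fold changes of the neutrophil genes ran from -3.20 to 0.85, with 5 of 13 positive and a median of -0.57. Klra8 of the natural killer list had 0 counts in every library, and each defining marker of the other lists was above 0. With upper-quartile factors the calls were 4 for natural killer genes and 0 each for T cell, monocyte and plasma cell genes, and with DESeq2 they were 3, 1, 0 and 0 in the same order. Without control libraries 1, 2 and 3 in turn the natural killer calls were 4, 7 and 5, the T cell calls 0, 0 and 1, and the monocyte calls 2, 3 and 1. Without DAF-TM library 1 the calls were 2 for naive B cell genes and 0 for the lists of interferon, plasma cell, monocyte, natural killer, T cell and plasmacytoid dendritic cell genes. The part of other cells in the values of Ly6d and Ly6c2 was not tested, and in bulk RNA fewer cells of a type and less RNA per cell cannot be told apart.

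**Figure D4:**
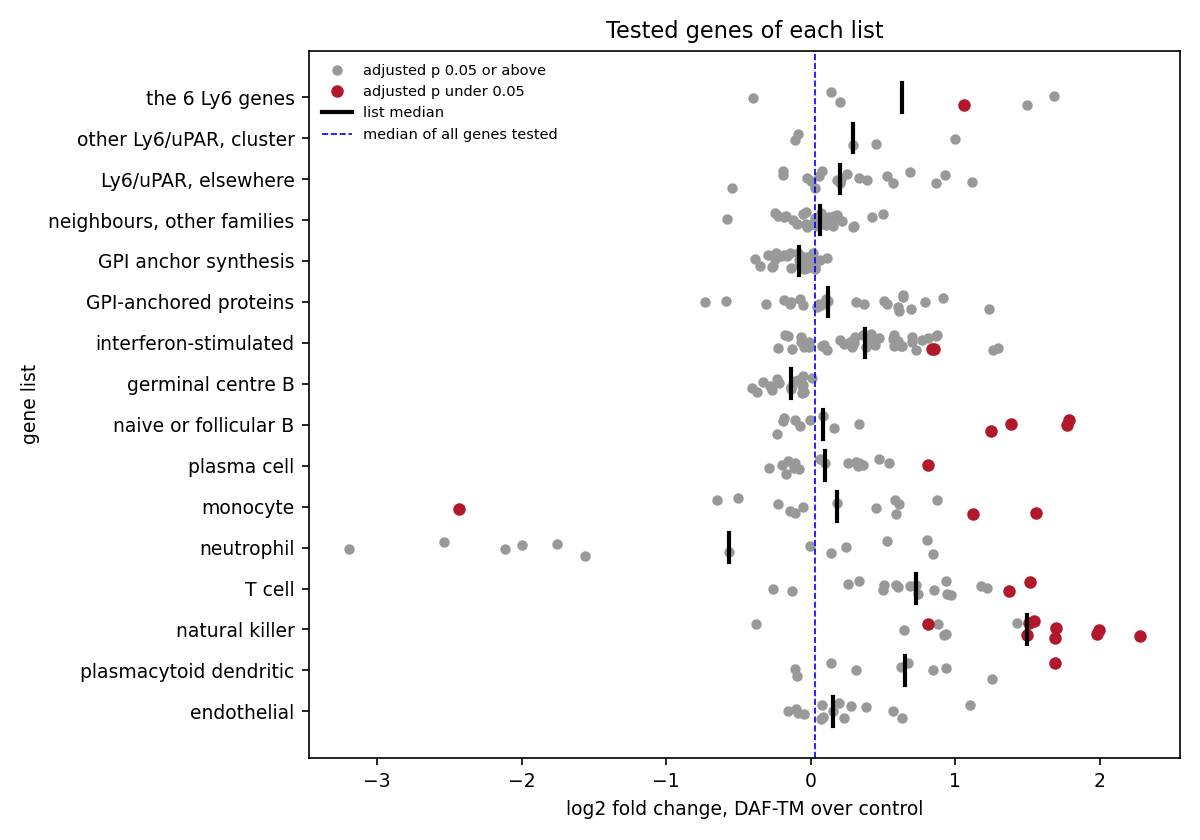
Log2 fold change, DAF-TM over control, of every tested gene in each list, with genes at an edgeR adjusted p under 0.05 in red, a black bar at each list median and a dashed line at the median of all genes tested. Anchor synthesis and germinal centre B cell genes cluster just below 0, the natural killer list has 9 red points, and among the 6 Ly6 genes the red point is Ly6d.

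Genes whose levels followed those of the Ly6 genes most closely were sought by the root mean square difference of log2 levels over the 5 libraries, each gene centred on its own mean, among 8624 other named genes with a mean of at least 10 CPM. With 5 libraries and this many genes close matches are bound to be found. Ly6d was nearest to Ifi203, an interferon-inducible gene of the PYHIN family, at a difference of 0.120, and to Hhex, a transcription factor of memory B cells, at 0.146. Ifi203 had 29.9 and 25.4 CPM in DAF-TM cells, against 11.4, 15.8 and 11.7 CPM in controls, and Hhex had 30.8 and 16.96 CPM in DAF-TM cells against 8.99, 16.8 and 10.6 CPM in controls. Like Ly6d, both were highest in DAF-TM library 1 and, among the controls, in library 2. Ly6c2 was nearest to Jun, an immediate early gene, at 0.288, and to Serpina3g, a serine protease inhibitor, at 0.323. Jun had 58.5 and 13.5 CPM in DAF-TM cells, against 18.4, 4.07 and 12.1 CPM in controls, so it shared with Ly6c2 the high DAF-TM library 1 and the low control library 2. Ly6e was nearest to Ttf1 (0.0141) and Rala (0.0211), and Ly6a to Rexo2 (0.0370) and Sla (0.0427).

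**Figure D5:**
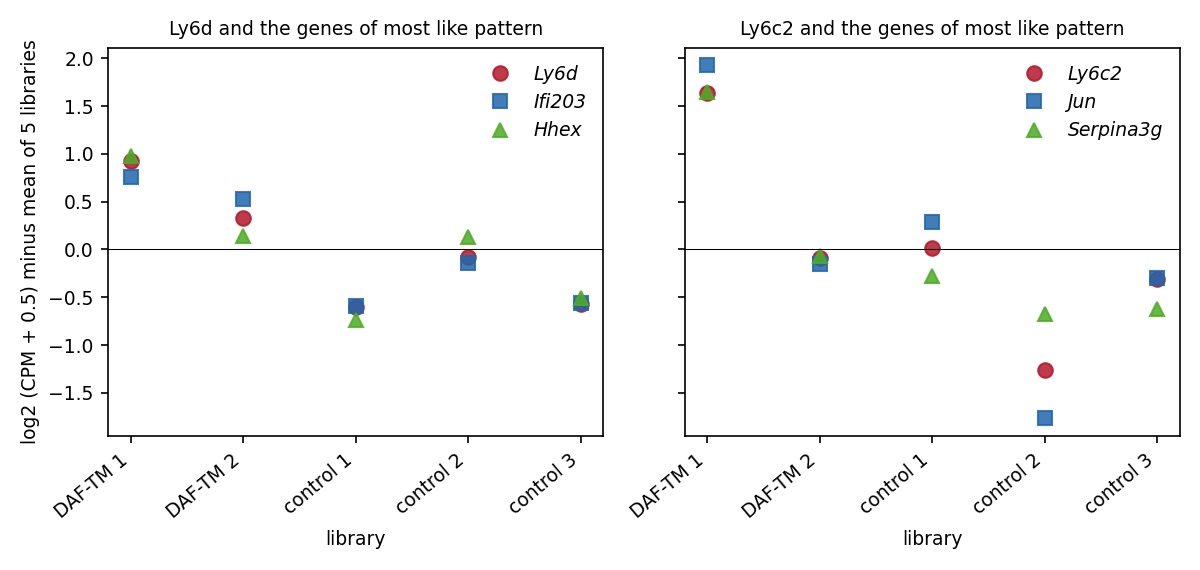
Centred log2 levels over the 5 libraries of Ly6d with Ifi203 and Hhex (left) and of Ly6c2 with Jun and Serpina3g (right). In the left panel both DAF-TM libraries lie above 0, whereas in the right panel DAF-TM library 1 stands alone above 1.5.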

How the data were processed

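RNA of sorted germinal centre B cells (10 ng per sample) was reverse transcribed from an oligo-dT primer with the SMART-Seq v4 kit, which marks neither strand nor molecules, and read as 100 nt single ends, per the labels' protocols. The submitters' processing notes name bcl2fastq, HISAT2, featureCounts and mm10 (GRCm38), without tool versions. Which gene models were counted, whether strand was used and how reads with several hits were handled is not given in the sources used here. The file deposited by the authors holds raw counts by gene symbol, and column names gave the sample of each of its 6 columns.

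The counts were fitted in R 4.3.3 with edgeR 4.0.16 and limma 3.58.1, using TMM scaling, filterByExpr, glmQLFit with robust estimation, a two-sided glmQLFTest on genotype and Benjamini-Hochberg adjustment over 18767 genes at 0.05, with 3 residual degrees of freedom. The 6 planned samples became 5 because 2 columns were the same. In data simulated for DAF-TM against control (18767 genes) genes with a true fold of 1.5 were called in 18% of cases and those with a fold of 2 in 54%. Those with a fold of 4 were called in 96% and of 8 in 82%, and 9 of 134 calls were false. The simulated counts took their spread from its trend with mean level and held no outlying library, so these rates may not hold for the real data. CPM are TMM-normalised except those of sex-linked and receptor genes, and log2 differences of single libraries used a pseudocount of 0.5.

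The members and the lists were chosen with earlier results of these data known. Of 319 list entries 313 matched a row, 11 through other symbols. Thsd1 was dropped from the flanking genes because it lies on another chromosome. Named were the 6 members, the other Ly6/uPAR genes of the cluster, and in further lists those past the threshold (at most 3 of lowest p) or, for the family, flanking and GPI lists, the 3 most abundant; not every gene so named is reported here. Ccr2 and Bcl6 were shown as defining markers. No label ties libraries of equal replicate number, so they are not treated as pairs in the main fit. A replicate block, tried as another setting, pairs them, and control library 3 then has no partner and adds nothing to the genotype contrast. Other settings tried were upper-quartile and RLE factors, the table without a filter, 1 CPM in 3 libraries, DESeq2 1.42.0, limma-voom, a replicate block and leaving out each library. Gene positions, lengths and 100-base windows come from GENCODE M21, and promoters from RefSeq.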

Additional observations from a re-analysis of the deposited data

How the results depend on the processing

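Ly6d was called with DAF-TM higher under 11 of the 12 alternatives, with log2 fold changes of 0.97 to 1.12 under other scaling, filters, tools or the replicate block and 0.72 to 1.33 when 1 library was left out. The exception was the fit without DAF-TM library 1. Ly6c2 gained a call without DAF-TM library 2 (2.13) and with the replicate block (1.47), so that 2 of the 6 members were called there. Ly6a ran from -0.17 to 0.50, Ly6e from 0.00 to 0.26 and Ly6k from -0.77 to 0.38 when 1 library was left out. The median over the 6 genes was 0.63, 0.54 with the replicate block and 0.18 to 0.91 when 1 library was left out. Calls of the members under these settings describe them and are no support, because they were chosen with the comparison known.

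Over all genes the 77 calls became 39 with upper-quartile factors, 32 with DESeq2, 49 with limma-voom, 61 with the replicate block, and 14 (without DAF-TM library 1) to 118 (without DAF-TM library 2) when 1 library was left out. Calls with DAF-TM higher were 70, and 45 with the replicate block, under which natural killer calls were 3, neutrophil calls 4, and plasma and T cell calls 0. The deviations of same-numbered libraries correlated at -0.12 for number 1 and -0.25 for number 2. The cause of these changes was not tested. No family gene outside the 6 was called under any alternative that gave it an adjusted p. Among the other genes named from the lists, Ccr7 was called under every alternative that gave a value. Low counts limit Ly6c1 most, with 2 to 32 counts per library, and DESeq2 gave it no adjusted p.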
